A study of Mus musculus with 21 samples.

Results

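The genes described are 43 markers of brain blood vessels, measured in whole-brain RNA of SAMP8 mice treated with the peptide HsTX1[R14A] or with PBS. A list of 44 symbols was matched by name to the 16318 rows of the gene table, and 43 were found. Of these, 31 mark endothelial cells and 12 mark mural cells, the pericytes and smooth muscle cells on the outside of the vessel. The 44th, Cspg4os, was not analysed here. The list gives names and sets no threshold on a measured value, but it was drawn up with earlier results of these data known. SAMP8 is a senescence-prone inbred mouse line that develops memory deficits with age, and HsTX1[R14A] is a scorpion toxin analogue that blocks the voltage-gated potassium channel Kv1.3. All 21 mice were SAMP8, were 6 months old at collection, had been injected subcutaneously every other day for 8 weeks, and were perfused with PBS before the brain was taken. The HsTX1[R14A]-treated group held 3 females and 6 males given 1 mg/kg, and the PBS-treated group held 6 females and 6 males. Every mouse carried the same inbred background, and no other strain entered any comparison.

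The blood-brain barrier is formed by endothelial cells that are sealed to each other by tight junctions, carry nutrients through dedicated transporters and return lipophilic compounds to the blood through efflux pumps. Pericytes lie in the basement membrane of capillaries and support the barrier, while smooth muscle cells wrap arterioles and set their diameter. Vascular endothelial growth factor, angiopoietin and TGF-beta family receptors on the endothelium control vessel growth and stability. In whole-brain RNA a lower level of a vessel gene can mean fewer vessel cells or less RNA per cell, and these cannot be told apart.

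Levels are given for every mouse as CPM, in which each count is divided by the TMM-adjusted size of its library so that libraries can be compared. Each library held between 14917175 and 47613793 counts. A second measure of each library, its length slope, was the slope of log2 CPM, centred for each gene over all mice, on log2 transcript length. A positive slope means that long transcripts took a larger part of that library than of the average library. The slope was -0.08 ± 0.16 (SD, n = 12) in PBS-treated and 0.10 ± 0.12 (SD, n = 9) in HsTX1[R14A]-treated mice. The difference averaged over the sexes was 0.20, with a two-sided permutation p of 0.00627 when treatment labels were exchanged within each sex. For total counts the same permutation test gave p = 0.403. The library labels also came in 2 forms, one beginning SAMP (2 PBS, 4 HsTX1[R14A]) and one beginning SAMP8 (10 PBS, 5 HsTX1[R14A]), and what separates them is not given in the sources used here.

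All 43 genes were detected in every mouse and all passed the filter on low counts. The lowest single value was 10 counts, for Higd1b, and the highest gene was Bsg with at least 5018. Divided by transcript length, the PBS mean ran from 229 CPM per kilobase for Bsg (basigin, a partner of monocarboxylate transporters that is not restricted to vessels) down to 0.176 for Myh11, smooth muscle myosin heavy chain. After Bsg the highest PBS levels per length were Rgs5 at 23.3, Vtn at 22.9 and Ly6c1 at 21.9 CPM per kilobase, and these neighbours did not differ beyond their spread between mice. Itm2a (15.4) and Pltp (14.6) came next, below Ly6c1 by more than the larger SD of that pair. Slc2a1 (11.4), Slco1c1 (11.1), Egfl7 (10.9) and Cldn5 (10.3) followed, and from Itm2a to Cldn5 no neighbouring pair differed by more than its larger SD. On the same scale Flt1 stood at 3.45, Pdgfrb at 2.16, Kdr at 0.847 and Vwf at 0.369 CPM per kilobase. The endothelial markers Cldn5, Pecam1 and Cdh5 and the mural markers Rgs5, Pdgfrb and Acta2 were present in all mice, so the tissue held the cells that the list names.

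In the comparison of HsTX1[R14A]-treated with PBS-treated mice, which asks what the peptide changes in the whole brain, 7 of the 43 vessel genes differed and all 7 were higher after HsTX1[R14A]. They were the vascular growth factor receptors Flt1 and Kdr, the TGF-beta co-receptor Eng, the tight junction scaffold Tjp1, the glucose transporter Slc2a1, the nitric oxide synthase Nos3 and the pericyte channel subunit Abcc9. Their fold changes lay between 1.31 and 1.56. The test was edgeR's quasi-likelihood test with sex in the model and Benjamini-Hochberg adjustment over all 16303 genes tested, with an adjusted p of 0.05 or less counted as a difference. By the same rule 31.6% of all genes differed, 15.5% higher and 16.1% lower, so 7 of 43 higher was near the background and 0 of 43 lower was below it. The median log2 fold change of the 43 genes was 0.25, beside -0.01 over all genes tested, and 30 of 43 values were above 0. The 31 endothelial genes had a median of 0.28 with 6 that rose, and the 12 mural genes a median of 0.01 with 1 that rose. At an unadjusted p under 0.05 the count was 20 of 43, against 46.4% of all genes. The count of 7 depended on single mice. It was 3 without HsTX1[R14A] female 71 (20.4% of all genes) and 4 without HsTX1[R14A] female 98 (18.4%), male 81 (20%) or male 88 (19.1%) or without PBS male 90 (14%). It was 18 without HsTX1[R14A] male 93 (40.6%), 16 without PBS male 102 (35.8%) and 13 without PBS female 84 (36.7%). Once each library's length slope entered the model it was 0 (0% of all genes), 1 of 43 then had an unadjusted p under 0.05 (11.4% of all genes), and the median became -0.02. Among other methods the count was 11 by limma/voom (31.9% of all genes), 15 with quality weights added (34.7%), 13 by DESeq2 (37.7%), 9 with RLE scaling (32.3%), 7 without the filter (31.5%), 10 among genes with at least 10 counts in every mouse (36.9%) and 3 without sex in the model (18.3%). These calls were all higher after HsTX1[R14A], except that 1 of the 13 by DESeq2, of the 10 among genes with at least 10 counts and of the 13 without PBS female 84 (Rgs5 each time) and 2 of the 18 without male 93 (Rgs5 and Tagln) were lower.

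**Figure D1:**
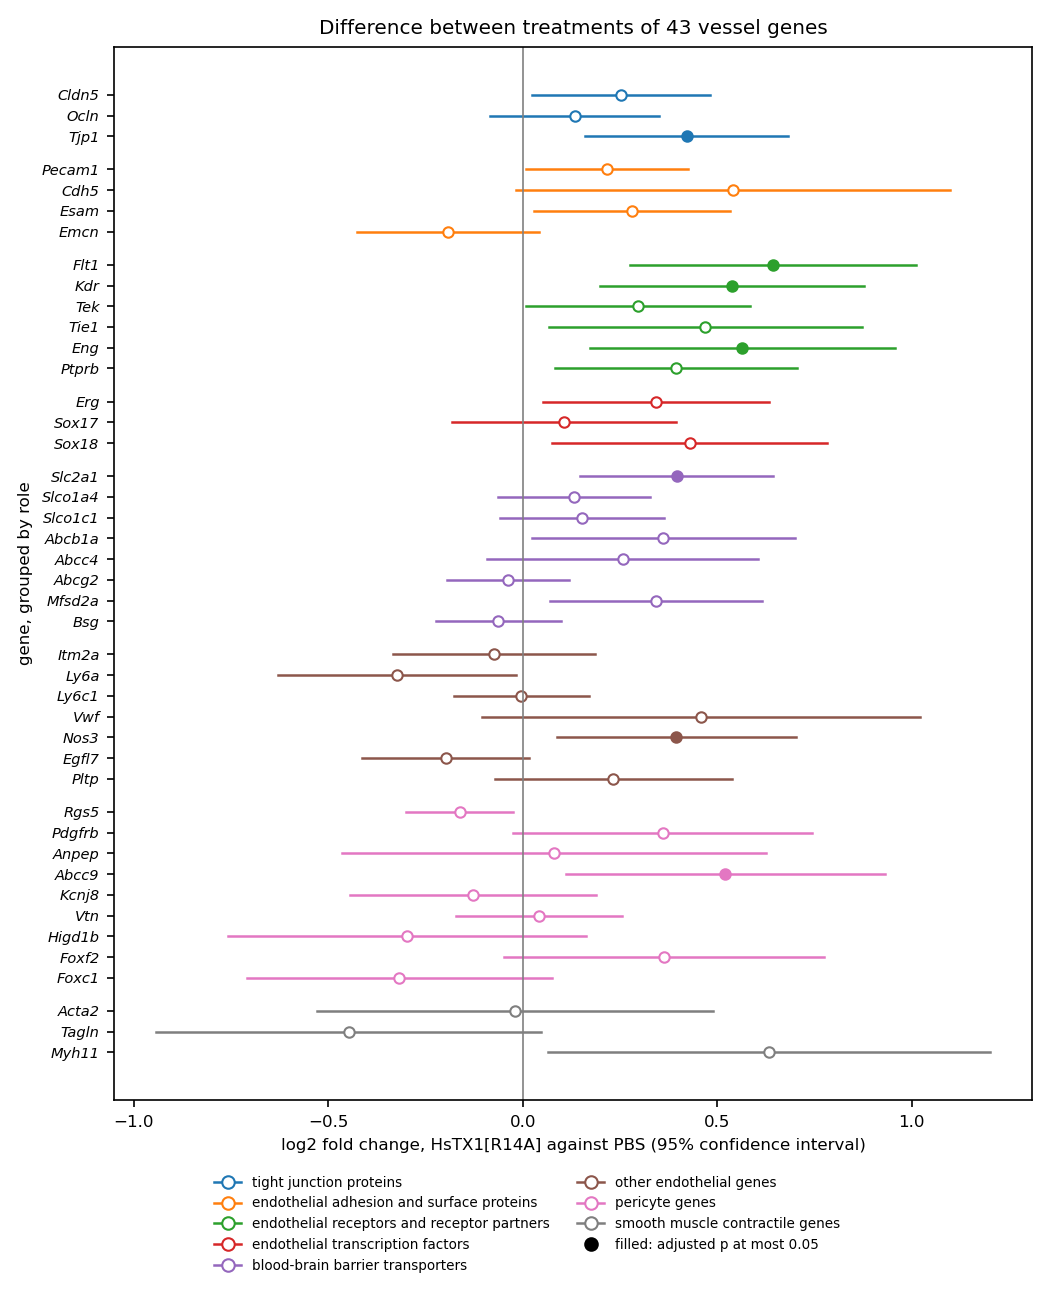
Fitted log2 fold change (points) of each vessel gene between HsTX1[R14A]-treated and PBS-treated mice, with 95% confidence intervals (lines), ordered by role; filled points have an adjusted p of 0.05 or less. The 7 filled points all lie to the right of 0, and the endothelial receptors form the block furthest to the right with a median of 0.50.

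The receptors and receptor partners held the largest differences of the endothelial groups: all 6 had values above 0, with a median of 0.50, and 3 of them rose. Flt1 and Kdr encode the receptors for vascular endothelial growth factor, of which Kdr carries most of the growth signal and Flt1 also acts as a ligand trap. Flt1 (chr5:147561604-147726011, minus strand) ran from 11.9 through a median of 21.1 to 38.5 CPM in the 12 PBS-treated mice, and from 18.6 through 37.6 to 46.3 CPM in the 9 HsTX1[R14A]-treated mice. The 2 ranges overlapped, 8 of 9 treated mice lay above the PBS median, and the exception was male 93. The fold change was 1.56, or 0.64 ± 0.18 (SE) on the log2 scale, with an edgeR adjusted p of 0.0191. Kdr (chr5:75932827-75978458, minus strand) ran from 3.11 through 4.76 to 7.93 CPM in PBS-treated and from 4.35 through 6.76 to 10.1 CPM in HsTX1[R14A]-treated mice, with 8 of 9 treated mice above the PBS median. Its log2 fold change was 0.54 ± 0.16 (SE), edgeR adjusted p = 0.0239, and it did not pass without HsTX1[R14A] female 71 (0.0502).

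Eng, or endoglin, is a co-receptor for BMP9 and TGF-beta that keeps vessels from forming arteriovenous shunts. Eng (chr2:32646595-32682669, plus strand) ran from 3.55 through 7.93 to 12.4 CPM with PBS and from 6.47 through 11.8 to 16.95 CPM with HsTX1[R14A]. The groups overlapped, but 4 of 9 treated mice lay above every PBS mouse. The log2 fold change was 0.56 ± 0.19 (SE) with an edgeR adjusted p of 0.0313, and the call was lost without PBS male 90 or HsTX1[R14A] females 71 or 98 or males 81 or 88 (adjusted p up to 0.0647 in edgeR). The annotated gene overlaps Fpgs on the other strand. The 3 remaining receptors did not pass: Ptprb, a phosphatase that restrains Tie2 signalling, had 0.39 and fell just outside at an edgeR adjusted p of 0.050023, while Tie1, an orphan partner of Tie2, had 0.47 (0.0658) and Tek, the angiopoietin receptor Tie2 itself, had 0.30 (0.0998). Within this group every pair of genes moved together among mice after group means were removed, with r between 0.77 and 0.94 over 21 mice. Adding the slope to the model changed the fitted log2 value of Flt1 to 0.10, of Kdr to 0.10 and of Eng to -0.05.

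The bases before the start of these 3 genes are given because endothelial promoters are commonly bound by ETS factors such as Erg, itself one of the 43 genes. The stretches are the 250 bases upstream of the RefSeq start on GRCm38.p6, written 5′ to 3′ on the strand of the gene, with capitals marking the letters AGGAAG or, on the other strand, CTTCCT.
Flt1, chr5:147726012-147726261, minus strand: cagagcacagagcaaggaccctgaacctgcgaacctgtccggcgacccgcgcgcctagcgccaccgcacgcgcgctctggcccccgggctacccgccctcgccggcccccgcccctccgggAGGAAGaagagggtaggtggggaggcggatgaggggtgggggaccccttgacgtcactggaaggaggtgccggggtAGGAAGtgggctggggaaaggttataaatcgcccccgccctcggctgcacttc
Eng, chr2:32646345-32646594, plus strand: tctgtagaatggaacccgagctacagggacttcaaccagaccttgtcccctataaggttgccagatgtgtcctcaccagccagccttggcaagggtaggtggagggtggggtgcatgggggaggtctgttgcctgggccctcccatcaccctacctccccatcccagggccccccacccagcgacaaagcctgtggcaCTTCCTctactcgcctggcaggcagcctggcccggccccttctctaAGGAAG
Kdr, chr5:75978456-75978705, minus strand: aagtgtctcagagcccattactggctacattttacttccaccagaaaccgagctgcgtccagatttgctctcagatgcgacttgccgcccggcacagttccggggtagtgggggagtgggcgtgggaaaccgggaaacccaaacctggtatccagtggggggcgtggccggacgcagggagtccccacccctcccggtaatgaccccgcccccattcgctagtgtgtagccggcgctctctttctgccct
Flt1 held the letters 129 and 53 bases before its start, Eng held them 52 and 6 bases before, and Kdr did not hold them in this window. A promoter entry was matched for 29 of the 43 genes, with 38 starts in all. The letters stood in 16 of these 38 windows (42.1%), beside 29.5% of all 32851 windows in the RefSeq table. Of the 7 genes that rose, 6 had an entry, and only Flt1 and Eng of those 6 held the letters. The match is a description of the letters and not of binding.

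**Figure D2:**
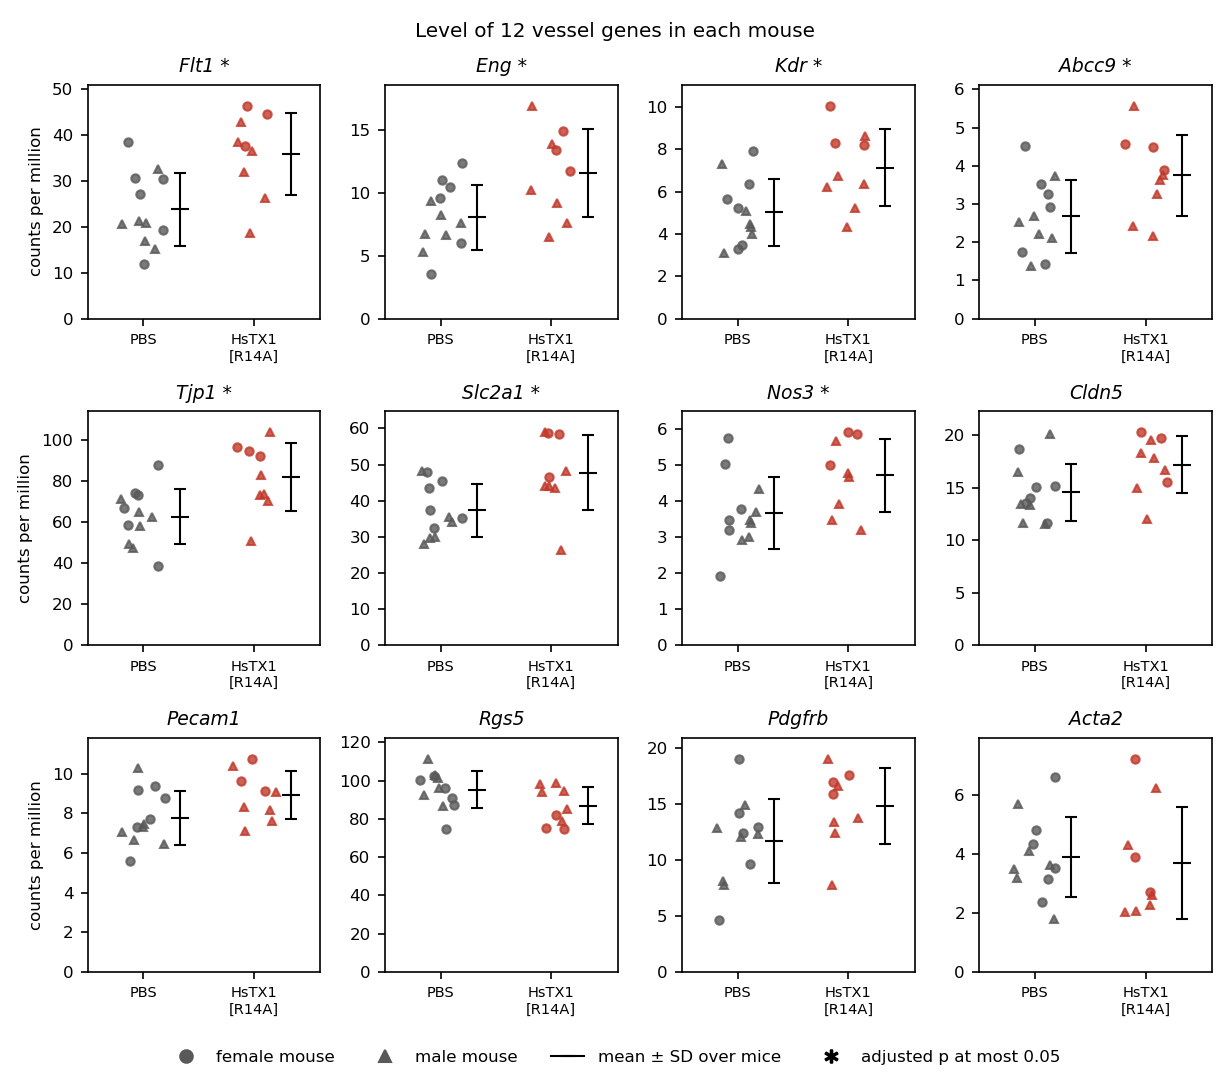
Level in CPM of 12 vessel genes in each mouse, PBS-treated (grey) and HsTX1[R14A]-treated (red), females as circles and males as triangles, with the mean ± SD over mice beside each group; an asterisk marks an adjusted p of 0.05 or less. The groups overlap in every panel, and the lowest HsTX1[R14A] point for Flt1, at 18.6 CPM, is male 93.

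Of the 3 tight junction genes, 1 rose. Tjp1 encodes ZO-1, a scaffold that ties junction strands to actin and is also made by many other cells of the brain. Tjp1 (chr7:65296165-65527781, minus strand) ran from 38.8 through 64.0 to 87.9 CPM in PBS-treated and from 51.0 through 83.3 to 104 CPM in HsTX1[R14A]-treated mice, so that 4 of 9 treated mice lay above all PBS mice. The log2 fold change was 0.42 ± 0.13 (SE), edgeR adjusted p = 0.0226. Cldn5, the claudin that seals the barrier to small solutes, ran from 11.5 through 13.8 to 20.1 CPM with PBS and from 11.99 through 17.9 to 20.3 CPM with HsTX1[R14A]. Its ranges overlapped almost fully, although 8 of 9 treated mice were above the PBS median, and its log2 value of 0.25 ± 0.11 (SE) had an edgeR adjusted p of 0.0806. Ocln, or occludin, had 0.13 (edgeR adjusted p = 0.321).

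None of the 4 adhesion and surface genes passed. Pecam1, a junctional adhesion protein found on all endothelium, ran from 5.61 through 7.39 to 10.3 CPM with PBS and from 7.13 through 9.07 to 10.7 CPM with HsTX1[R14A], and the log2 difference was 0.22 ± 0.10 (SE), edgeR adjusted p = 0.0963. The groups overlapped, and the highest PBS mouse, male 102, lay above 7 of the 9 treated mice. Cdh5 (VE-cadherin, the adherens junction cadherin) had a larger value, 0.54, with a wider 95% interval of -0.02 to 1.099. Esam had 0.28 and Emcn, a sialomucin of veins and capillaries, had -0.19, with edgeR adjusted p of 0.0777 and 0.182.

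The 3 endothelial transcription factors had log2 values of 0.34 for Erg, 0.11 for Sox17 and 0.43 for Sox18, and none passed. Erg maintains endothelial identity and junctions. It ran from 2.06 through 2.66 to 3.79 CPM with PBS and from 2.17 through 3.29 to 4.35 CPM with HsTX1[R14A]. Of the 9 treated mice 4 lay above all PBS mice, and the edgeR adjusted p was 0.0641. For Sox18, which acts in arterial and lymphatic specification, the edgeR adjusted p was 0.0570.

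Of the 8 transporters, Slc2a1 rose. Slc2a1 encodes GLUT1, which carries glucose across the barrier and is also made by astrocytes. Slc2a1 (chr4:119108711-119137983, plus strand) ran from 27.9 through 35.4 to 48.2 CPM in PBS-treated and from 26.4 through 46.5 to 58.9 CPM in HsTX1[R14A]-treated mice. Male 93 was the lowest mouse of both groups, and the other 8 treated mice lay above the PBS median. The log2 fold change was 0.40 ± 0.12 (SE), edgeR adjusted p = 0.0237. Mfsd2a, the carrier of lysophosphatidylcholine-bound omega-3 fatty acids that also limits transcytosis, had 0.34 with an edgeR adjusted p of 0.0508, just outside the threshold. The efflux pump Abcb1a (P-glycoprotein) had 0.36, Abcc4 had 0.26 and Abcg2 had -0.04. The organic anion and thyroid hormone carriers Slco1a4 and Slco1c1 had 0.13 and 0.15, and Bsg had -0.06, all of them with edgeR adjusted p above 0.05. Reads of Abcb1a can be shared with its close copy Abcb1b, so its value is uncertain.

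Among the 7 other endothelial genes Nos3 rose. Nos3 makes the nitric oxide that relaxes vessels, and its annotated gene (chr5:24364810-24384474, plus strand) overlaps Atg9b on the other strand. It ran from 1.92 through 3.48 to 5.77 CPM with PBS and from 3.21 through 4.79 to 5.92 CPM with HsTX1[R14A]. The groups overlapped and 8 of 9 treated mice were above the PBS median. The log2 fold change was 0.39 ± 0.15 (SE), edgeR adjusted p = 0.0469, and it passed in 7 of the 21 fits that each left out 1 mouse, whose edgeR adjusted p ran from 0.0220 to 0.0932. Vwf, the clotting factor stored by endothelial cells of larger vessels, varied most of the 43 genes among PBS-treated mice, with a coefficient of variation of 48.7%. It ran from 1.17 through 2.75 to 6.41 CPM with PBS and from 1.42 through 4.56 to 7.78 CPM with HsTX1[R14A], which overlapped over most of their length, and its log2 difference was 0.46 ± 0.27 (SE, edgeR adjusted p = 0.185). Ly6a, a surface antigen of brain endothelium, had -0.32 and Egfl7, a secreted matrix protein that hosts a microRNA in its intron, had -0.20, with edgeR adjusted p of 0.0920 and 0.134, and Ly6a passed without PBS male 82 (0.0445). Itm2a, Ly6c1 and Pltp had -0.07, 0.00 and 0.23. Ly6a and Ly6c1 belong to a family of near copies, which makes the split of their reads uncertain.

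Of the 9 pericyte genes 1 rose. Abcc9 encodes SUR2, the regulatory subunit of the pericyte and smooth muscle ATP-sensitive potassium channel, and Kcnj8 its pore subunit Kir6.1, and both lie side by side on chromosome 6. Abcc9 (chr6:142587862-142702315, minus strand) ran from 1.39 through 2.61 to 4.51 CPM with PBS and from 2.17 through 3.77 to 5.57 CPM with HsTX1[R14A], with overlap and with 7 of 9 treated mice above the PBS median. Its log2 fold change was 0.52 ± 0.20 (SE), edgeR adjusted p = 0.0493, and it passed in 5 of the 21 fits that each left out 1 mouse (0.0229 to 0.102). The partner Kcnj8 had -0.13 ± 0.15 (SE), edgeR adjusted p = 0.521. Abcc9 has a transcript of 7499 bases and Kcnj8 one of 2548.

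Rgs5 is a regulator of G-protein signalling and, with Vtn, had the highest level per length of the pericyte genes. Rgs5 ran from 74.6 through 96.4 to 111 CPM with PBS and from 75.0 through 85.5 to 99.0 CPM with HsTX1[R14A]. Only 2 of 9 treated mice were above the PBS median, and the log2 value of -0.16 ± 0.07 (SE) had an edgeR adjusted p of 0.0638. It passed as lower by DESeq2 (adjusted p = 0.0467), and by edgeR with at least 10 counts in every mouse (adjusted p = 0.0484), without PBS female 84 (0.0313), without PBS male 91 (0.0453) and without HsTX1[R14A] male 93 (0.0414). Pdgfrb, the receptor through which endothelial PDGF-B recruits pericytes, ran from 4.61 through 12.3 to 19.04 CPM with PBS and from 7.74 through 15.9 to 19.03 CPM with HsTX1[R14A]. Both ranges ended at the same level, and the log2 value of 0.36 ± 0.19 (SE) had an edgeR adjusted p of 0.131. Vtn (0.04), Anpep (0.08), Higd1b (-0.30) and the forkhead factors Foxf2 (0.36) and Foxc1 (-0.32) did not pass either. Foxc1 and Foxf2, both needed for brain mural cells, are neighbours on chromosome 13 and had values of opposite sign.

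The 3 contractile genes of smooth muscle had log2 values of -0.02 for Acta2, -0.45 for Tagln and 0.63 for Myh11, and none passed. Acta2, smooth muscle actin, ran from 1.79 through 3.57 to 6.61 CPM with PBS and from 2.04 through 2.71 to 7.22 CPM with HsTX1[R14A], and neither group stood apart. Tagln, the actin-binding protein SM22, had 5 of 9 treated mice below all PBS mice and an edgeR adjusted p of 0.143, which was 0.0328 without HsTX1[R14A] male 93. Myh11 had 5 of 9 above all PBS mice and 2 below them, with an edgeR adjusted p of 0.0773. Myh11 has a transcript of 6549 bases and Tagln one of 1595.

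The log2 fold changes followed transcript length, both within the 43 genes and in the whole table. Over the 43 genes, whose lengths ran from 735 to 11911 bases, Spearman's rho between length and log2 fold change was 0.55, and over 16224 genes with a length it was 0.51. These are correlations across genes, which share libraries and are not independent replicates. The 21 genes longer than the median of 3441 bases had a median log2 fold change of 0.36 and held 5 of the 7 that rose, while the 22 others had 0.13 and held 2. With the length slope in the model these medians were -0.06 and 0.06, and no gene passed.

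**Figure D3:**
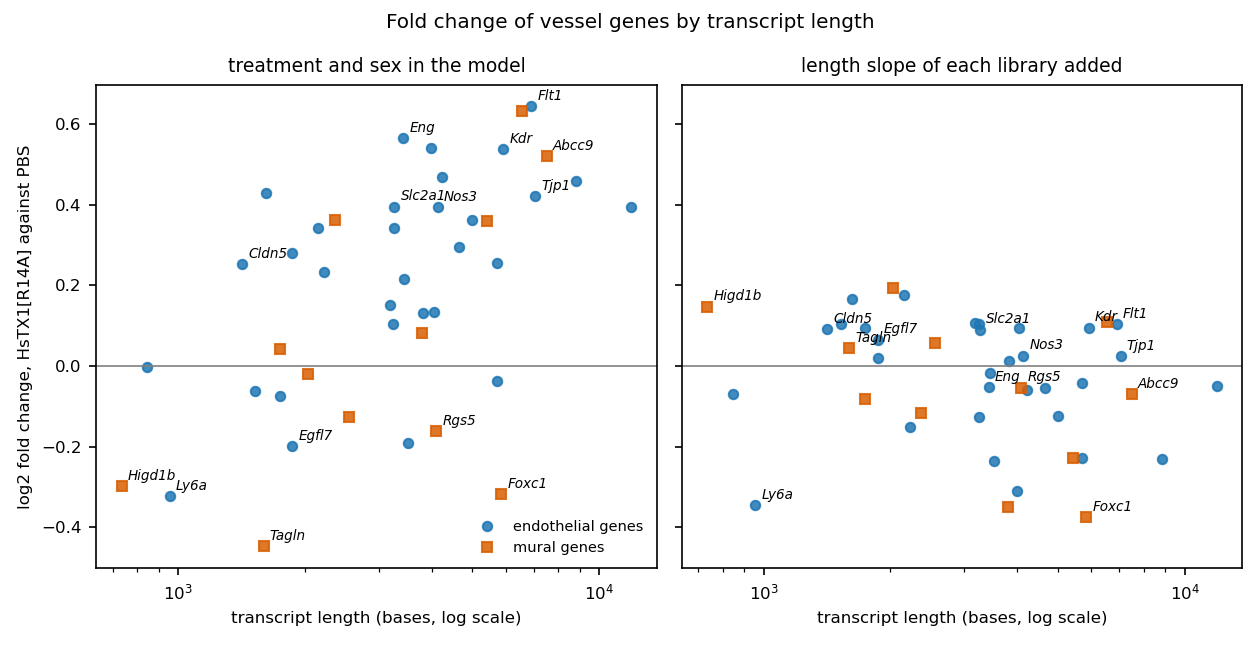
Log2 fold change of the 43 vessel genes against transcript length on a log axis, with treatment and sex in the model (left) and with the library's length slope also in it (right); endothelial genes are circles and mural genes squares. On the left long genes such as Flt1 lie above short ones such as Tagln and Higd1b; on the right the values of Flt1, Tjp1 and Abcc9 lie between -0.07 and 0.10.

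Levels were also set against the length slope among PBS-treated mice alone, where no treatment differs. The slope was computed from the log2 CPM of all genes with a length, these 43 included. Genes that are long or short therefore tend to follow it by construction, and the correlations below are a description. Over the 12 PBS-treated mice, log2 CPM followed the length slope of the library with an adjusted permutation p of 0.05 or less (100000 resamples, two-sided, Benjamini-Hochberg over all 16303 genes) for 26 of 43 vessel genes, 22 of them positively and 4 negatively. The background was large, since 55.3% of all genes passed the same test. Tjp1 had the highest value (Pearson's r = 0.97, Spearman's rho = 0.95), followed by Eng (r = 0.96, rho = 0.96), Tek (r = 0.92, rho = 0.93) and Ptprb (r = 0.92, rho = 0.90). Flt1 (r = 0.89, rho = 0.84), Kdr (r = 0.86, rho = 0.90), Abcc9 (r = 0.90, rho = 0.87) and Slc2a1 (r = 0.74, rho = 0.83) were also positive. Cldn5 (r = 0.41, rho = 0.43) did not pass, while Egfl7 (r = -0.84, rho = -0.85), Bsg (r = -0.80, rho = -0.71), Tagln (r = -0.67, rho = -0.49) and Higd1b (r = -0.67, rho = -0.55) were negative. After the 2 PBS libraries with the most extreme slopes were left out, 14 of the genes passed (29.5% of all genes), with Tjp1 at r = 0.95, Eng at 0.95, Flt1 at 0.77, Kdr at 0.84 and Abcc9 at 0.79 among them. Slc2a1 no longer passed (r = 0.72, adjusted permutation p = 0.0585). Of the 14, 13 were positive and only Egfl7 (r = -0.74) was negative. Bsg (r = -0.46), Tagln (-0.24) and Higd1b (-0.20) no longer passed. By Spearman's rho Tagln and Higd1b did not pass in the 12 mice either (adjusted permutation p = 0.172 and 0.122). Within the 10 PBS libraries whose labels begin SAMP8, 23 passed (53% of all genes). The part of the length slope in the treatment differences was not tested beyond these values, since the slope itself differed between the treatments.

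**Figure D4:**
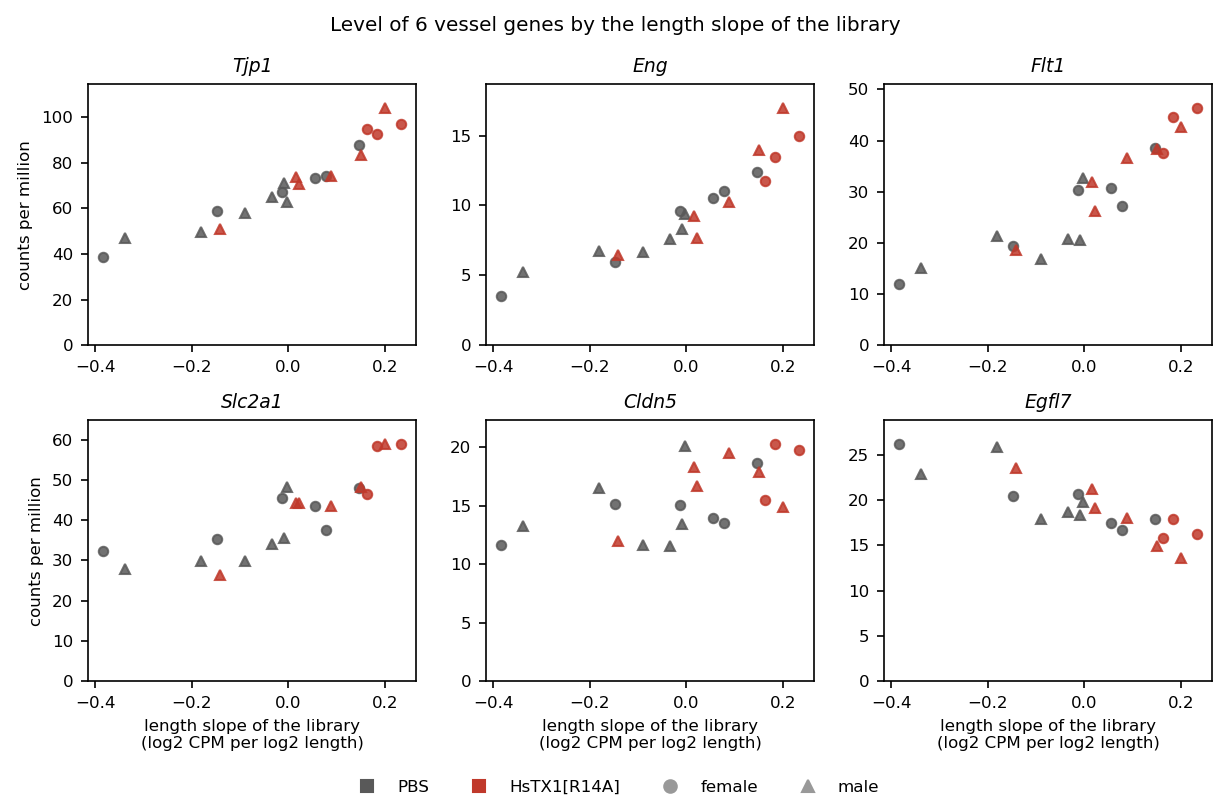
Level in CPM of 6 vessel genes against the length slope of the library (log2 CPM per log2 length), 1 point per mouse, PBS-treated in grey and HsTX1[R14A]-treated in red, females as circles and males as triangles. Tjp1 and Eng rise with the slope (r = 0.97 and 0.96 in the 12 PBS-treated mice), Cldn5 is scattered (r = 0.41), and Egfl7 falls (r = -0.84). The lowest red point in the first 4 panels is male 93, which lies among the grey points for Tjp1, Eng and Flt1 and below them for Slc2a1.

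Removing from each library the smooth trend of its values on length and GC content left 5 of the 43 genes past the threshold. Tjp1 (0.21), Flt1 (0.32), Slc2a1 (0.27) and Mfsd2a (0.38) were higher, and Foxc1 (-0.76) was lower, in a table where 15.3% of all genes passed. With the form of the library label as a covariate 1 gene, Flt1, passed (edgeR adjusted p = 0.0440), beside 12.3% of all genes. Among mice with labels beginning SAMP8 (10 PBS, 5 HsTX1[R14A]) 0 of 43 passed in edgeR's test (0% of all genes), 15 had an unadjusted p under 0.05 (35.6% of all genes), and the median log2 value was 0.29. Among those with labels beginning SAMP (2 PBS, 4 HsTX1[R14A]) 0 passed (0% of all genes), 0 had an unadjusted edgeR p under 0.05 (3.29% of all genes), and the median was 0.02.

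No vessel gene passed edgeR's quasi-likelihood test for a difference between the sexes or for a treatment difference that varied with sex. Females against males gave 0 of 43 (0.0552% of all genes), 0 by limma/voom (0.0613%) and 0 by DESeq2 (0.159%). The median log2 value was 0.23 higher in females, and 7 genes had an unadjusted edgeR p under 0.05 (10.8% of all genes). The treatment by sex interaction gave 0 of 43 by edgeR, limma/voom and DESeq2 (0% of all genes by each), with 4 at an unadjusted edgeR p under 0.05 (1.66% of all genes). Those 4 were Myh11 (1.096 higher in females), Foxc1 (0.85), Abcg2 (0.33) and Kcnj8 (-0.64), each with an adjusted p of 1.00. In females alone, with 3 treated mice, edgeR and limma/voom called 0 of 43 (0% of all genes), 10 had an unadjusted edgeR p under 0.05 (20.4% of all genes), and DESeq2 called 1, Myh11 (0.888% of all genes). In males alone edgeR and limma/voom called 0 of 43 (0% of all genes), 7 had an unadjusted edgeR p under 0.05 (27.6% of all genes), and DESeq2 called 1, Mfsd2a (4.3% of all genes).

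Of the genes just named, Myh11, Foxc1 and Kcnj8 are given by mouse. They were picked for their unadjusted p in these data, so their values describe the contrast and do not test it. The share of all genes without overlap in females is not given here. Myh11 ran from 0.852 to 1.44 CPM in PBS-treated females and stood at 1.94, 2.21 and 4.3 CPM in the 3 HsTX1[R14A]-treated females, without overlap, while in males the ranges were 0.622 to 1.80 and 0.596 to 2.31. Foxc1 ran from 3.60 through 5.53 to 9.06 CPM in PBS-treated males and from 2.95 through 3.50 to 5.01 CPM in HsTX1[R14A]-treated males, with overlap. Kcnj8 stood at 1.32, 1.36 and 1.41 CPM in the HsTX1[R14A]-treated females, below all 6 PBS-treated females (1.51 to 2.77). Without HsTX1[R14A] male 93 the count in males by edgeR became 6 (11.6% of all genes): Mfsd2a, Flt1, Slc2a1, Tjp1 and Eng were higher and Tagln was lower. Flt1 had similar values in both sexes, 0.70 in females and 0.61 in males.

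The endothelial genes varied together more than the mural genes did. After the means of the 4 groups were removed, the median r over 465 pairs of endothelial genes was 0.37, over 66 pairs of mural genes 0.02 and over 372 mixed pairs 0.00, with 21 mice per pair and the same libraries behind every point. The highest pair was Tjp1 with Pdgfrb (r = 0.96), a scaffold and a pericyte receptor, followed by Tjp1 with Cdh5 (0.96), Eng with Abcb1a (0.94) and Flt1 with Abcc9 (0.94). The most negative pairs were Tjp1 with Egfl7 (-0.87), Cdh5 with Egfl7 (-0.86) and Flt1 with Tagln (-0.86). All of these genes had r beyond 0.6 in size with the length slope among the PBS-treated mice. Rgs5 had negative r with Flt1, Kdr and Pdgfrb, and Cldn5, the tight junction gene, was closest to Esam (r = 0.76).

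**Figure D5:**
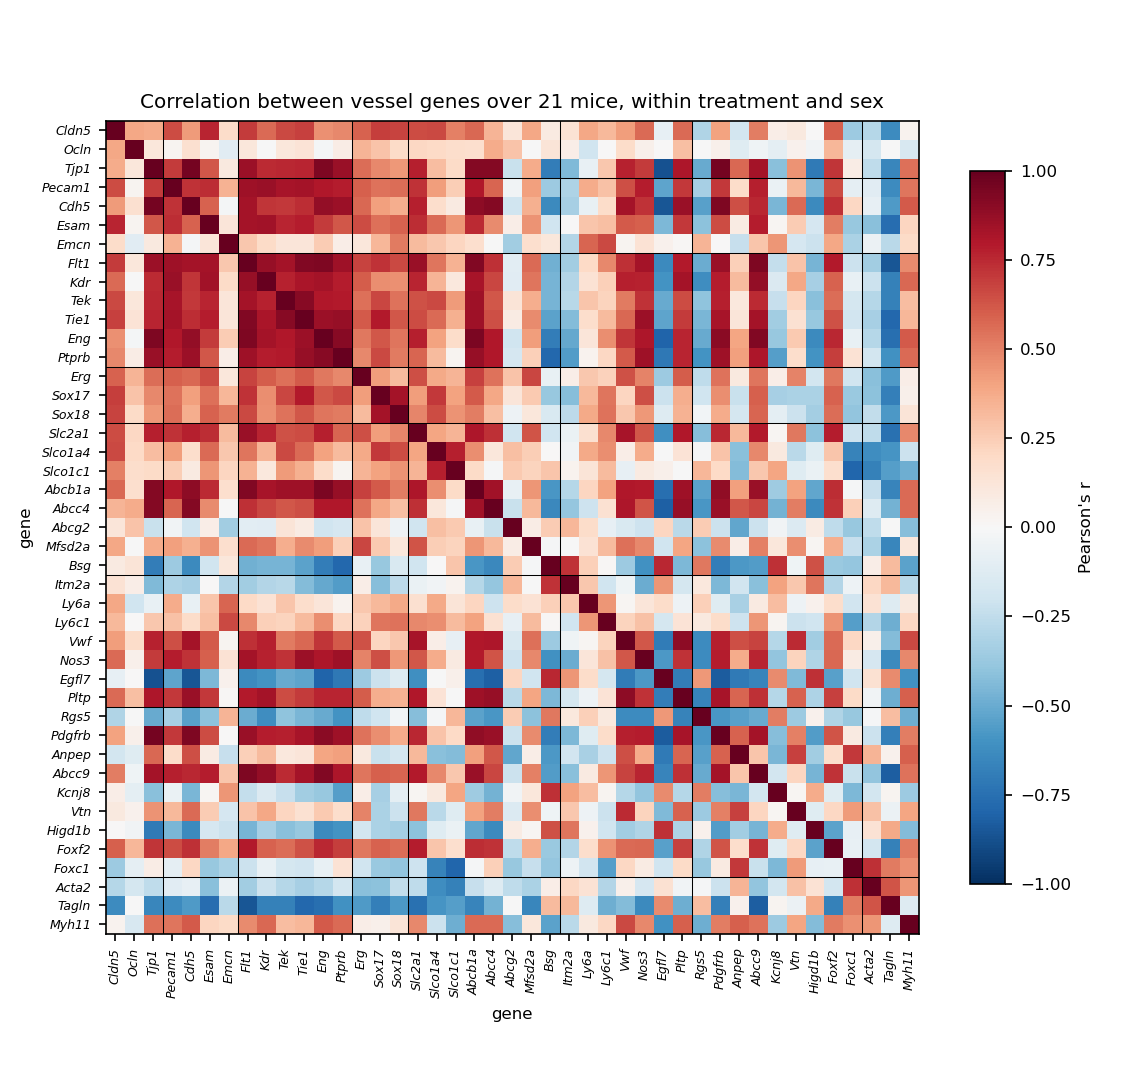
Pearson's r of log2 CPM between each pair of the 43 vessel genes over 21 mice, after the mean of each treatment and sex group was removed; black lines separate the roles, red is positive and blue negative. The receptor block is red throughout (r from 0.77 to 0.94), while Egfl7, Tagln and Bsg show as blue lines against it.

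Other genes of the same pathways, from lists chosen in the same way, showed both directions, as did all genes tested (15.5% higher and 16.1% lower). Of 16 further barrier transporters 8 rose and 2 fell (median log2 value 0.33), with Lrp1, a receptor for amyloid-beta and lipoproteins, at 0.96 (edgeR adjusted p = 0.0190) and Abcb1b at -0.84 (0.0206). Abcb1b was low, with a mean of 0.51 CPM with PBS and 0.27 CPM with HsTX1[R14A]. Its reads can be shared with Abcb1a, so its value is uncertain too. Of 16 genes of Wnt and Norrin signalling, which induces the barrier, 4 rose and 1 fell: beta-catenin (Ctnnb1) had 0.33 (edgeR adjusted p = 0.0271) and Tspan12, a Norrin co-receptor, -0.45 (0.0173). Among 15 angiogenic ligands 3 rose and 1 fell (median -0.05), with Efnb2 at 0.51 (edgeR adjusted p = 0.0151) and Pdgfb, the ligand of Pdgfrb, at 0.49 (0.0230). Of 12 further junction genes 1 rose, Ctnnd1 (0.47, edgeR adjusted p = 0.0186), and Jam3 had -0.17 (0.0634). Of 37 further endothelial genes 5 rose and 3 fell, with Rasip1 at 0.48 and Ctla2a at -0.50 (edgeR adjusted p = 0.0191 and 0.0199). Of 27 further mural genes 3 rose and 0 fell (median -0.11), including Notch3 at 0.97 and Cspg4, the proteoglycan NG2, at 0.66 (edgeR adjusted p = 0.0255 and 0.0307). With the length slope in the model none of these genes passed. Which cells made these transcripts, Lrp1, Ctnnb1 and Cspg4 among them, cannot be told from whole-brain RNA.

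Markers of other cell types were counted in the same way, beside 15.5% higher and 16.1% lower over all genes tested, and with the length slope in the model none of them passed. Of 18 markers of perivascular and meningeal fibroblasts 0 rose and 5 fell (median -0.49), and their summed level ran from 162 to 416 CPM with PBS and from 165 to 346 CPM with HsTX1[R14A]. Of 7 markers of perivascular macrophages 3 fell, Mrc1 (-0.78) and F13a1 (-0.68) among them, with sums of 8.93 to 24.7 and 8.54 to 19.1 CPM. Of 10 astrocyte markers 2 fell, Gfap (-0.59) and the endfoot water channel Aqp4 (-0.30), but 5 had log2 values above 0 and the median was 0.04. The astrocyte sums ran from 2445 to 4739 and from 2689 to 4669 CPM. Of 10 microglial markers 3 fell (sums 432 to 621 and 367 to 544 CPM), of 8 oligodendrocyte markers 4 fell (4396 to 6728 and 3315 to 4907 CPM), and of 10 neuronal markers 1 rose, Syt1 (6041 to 8728 and 7008 to 10048 CPM). Of 12 choroid plexus markers 1 fell (sums 74.5 to 1157 and 62.9 to 858 CPM) and of 7 ependymal markers 3 fell (15.7 to 51.8 and 13.3 to 25.0 CPM). None of 6 red blood cell genes (163 to 436 and 188 to 313 CPM) and none of 4 pituitary genes (1.74 to 34.2 and 1.13 to 29.5 CPM) passed; these counts are for adjusted p. The part of these cells in the vessel gene differences was not tested. The summed level of the 31 endothelial genes ran from 667 through 748 to 872 CPM with PBS and from 682 through 843 to 904 CPM with HsTX1[R14A], and that of the 12 mural genes from 154 through 172 to 185 and from 152 through 169 to 180 CPM, with overlap in both. Both sums weigh high genes such as Bsg and Rgs5 most, and Bsg is not restricted to vessels. The 8 transporters, Bsg among them, alone summed to 423 through 483 to 554 CPM with PBS and 450 through 481 to 556 CPM with HsTX1[R14A].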

How the data were processed

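Per the study's methods, whole-brain total RNA was sequenced on an MGI DNBSEQ instrument, aligned to GRCm38 with STAR and quantified with Salmon in nf-core/rnaseq. The labels name a SMARTER kit and the methods an MGI directional kit, and the strand setting of the counting is not given in the sources used here, so reads of genes that overlap on opposite strands may not be told apart. The deposited values are estimated counts per gene, not normalized, in 16318 rows, and 90.5% lay within 0.01 of a whole number. They were rounded. Each column was matched to 1 mouse by its label, and 53 other per-sample columns (37 of CPM, 16 of counts) were not used.

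Genes were filtered with filterByExpr on the 4 treatment and sex groups. After TMM scaling the quasi-likelihood test of edgeR 4.0.16 (R 4.3.3) was run with sex as covariate and Benjamini-Hochberg adjustment over all genes tested. limma 3.58.1, DESeq2 1.42.0, other scalings and filters, covariates, within-label-form fits and leaving out each mouse were the alternatives. Fold changes are on the log2 scale, with 95% intervals. Lengths and gene coordinates came from GENCODE vM21 (GRCm38), matched for all 43 genes, and upstream sequences from RefSeq. The length slope and levels for correlations used log2 CPM with a prior count of 2. Correlations with the slope were adjusted over all genes rather than over the vessel genes alone as first planned. Library totals set the counting precision: a gene at 10 counts in a mouse carries a large counting error, a gene with many counts little. No pair of libraries within a group agreed within sampling noise. Scripts were tested on simulated data. The genes and lists were chosen with earlier results of these data known. Values are given by mouse for Cldn5, Pecam1, Flt1, Erg, Slc2a1, Vwf, Rgs5, Pdgfrb, Acta2 and for genes that passed the treatment test. The rule for these asked for the 3 highest and the 3 lowest fold changes, and the other gene that passed (Abcc9) was added after its values were seen. Of the further vessel and pathway lists the 2 genes with the smallest p are named. The rule asked the same of the lists of other cell types. There such genes are named only for perivascular macrophages, astrocytes and, in part, neurons. Genes singled out by sex were chosen after their values were seen.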

Additional observations from a re-analysis of the deposited data

Results flagged for a closer look

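In 129 groups of 4 or more mice (each gene in each treatment and sex group with enough mice), Dixon's gap test picked out 8 single values, where chance alone gives about 1 in 20, or 6.45. PBS male 102 was far above the other PBS males in 3 endothelial genes, with Pecam1 at 10.3 CPM (next mouse 7.47), Esam at 5.72 CPM (3.67) and Flt1 at 32.6 CPM (21.3). Without this mouse the log2 fold change of Flt1 was 0.74. PBS female 103, the library with the lowest total and the most negative length slope, was lowest in Sox17 at 1.42 CPM (2.44) and highest in Bsg at 444 CPM (349). PBS female 84 was highest in Anpep, a peptidase of pericytes, at 4.10 CPM (2.30). HsTX1[R14A] male 74 was highest in Sox17 at 3.12 CPM (2.27). HsTX1[R14A] male 93 was highest in Tagln at 7.59 CPM (4.22), and was also the only HsTX1[R14A] library with a negative length slope (-0.14).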

How the results depend on the processing

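Per the study's methods, treatment was randomized among the mice of each cage. The labels do not give the cage, so cage could not enter any model. The share of all genes that passed is given in brackets after each count. The 7 genes that passed for treatment (31.6%) became 11 with limma/voom (31.9%), 13 with DESeq2 (37.7%) and 15 with quality weights (34.7%). The count was 3 without the sex term (18.3%) and 1 with the label form as covariate (12.3%). With the length slope as covariate it was 0 (0%). It was also 0 in either label form alone (0% in each), where fewer mice were fitted. It was 9 with RLE scaling (32.3%), 7 without the filter (31.5%), 10 with at least 10 counts in every mouse (36.9%) and 5 with the length and GC trend removed (15.3%). Leaving out each mouse gave 3 (20.4%) to 18 (40.6%) in all mice and 0 to 6 (11.6%) in males. In females it gave 0 to 0, where 0 of all genes passed in each fit. DESeq2 gave 1 in females (0.888%) and 1 in males (4.3%). The median log2 fold change of the 43 genes was -0.0175 with the slope as covariate and 0.0246 in mice with labels beginning SAMP, and otherwise 0.18 to 0.30. Correlations with the slope passed for 14 genes (29.5% of all genes) after the 2 most extreme libraries were left out. Flt1, Tjp1 and Slc2a1 passed whichever single mouse was left out. The interaction and the sex comparison gave 0 vessel genes under every alternative run. The cause of these changes was not tested.

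Signs of the log2 fold change turned as follows. With the slope as covariate: Pecam1 -0.0175, Cdh5 -0.31, Tek -0.0556, Tie1 -0.0601, Eng -0.0521, Ptprb -0.0495, Sox17 -0.13, Abcb1a -0.12, Abcc4 -0.23, Bsg 0.10, Itm2a 0.0947, Vwf -0.23, Egfl7 0.0658, Pltp -0.15, Pdgfrb -0.23, Anpep -0.35, Abcc9 -0.0695, Kcnj8 0.0566, Vtn -0.0826, Higd1b 0.15, Foxf2 -0.12, Acta2 0.19 and Tagln 0.0446. With the trend removed: Abcg2 0.0394, Bsg 0.0232, Itm2a 0.23, Ly6a 0.0167, Ly6c1 0.38, Vwf -0.11, Pdgfrb -9.35e-05, Anpep -0.0825, Higd1b 0.0816 and Acta2 0.12. With quality weights: Abcg2 0.00775, Bsg 0.0257 and Itm2a 0.11. With labels beginning SAMP: Pecam1 -0.0717, Esam -0.0571, Vwf -0.22, Pltp -0.04004, Vtn -0.13 and Myh11 -0.0221. With labels beginning SAMP8: Slco1c1 -0.0138, Abcg2 0.0108 and Acta2 0.27. With the label form as covariate Acta2 was 0.0694, and with RLE scaling Ly6c1 was 0.00268. Leaving out single mice turned Abcg2 (-0.0713 to 0.00176), Ly6c1 (-0.0477 to 0.0392), Anpep (-0.0577 to 0.19), Vtn (-0.0107 to 0.0803) and Acta2 (-0.21 to 0.0832), genes near 0. Low counts limit Higd1b, Myh11 and Tie1 most.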
